A study of Mus musculus with 16 samples.

Results

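Primary cilium transport genes encode the trains, motors, cargo adaptors and gatekeepers that build the cilium and sort proteins into it. Genes were taken by symbol: the numbered Ift and Bbs genes, Tctn1 to Tctn3, 5 transition zone Tmem genes (Tmem67, Tmem107, Tmem216, Tmem231 and Tmem237), the kinesin and dynein motor genes Kif3a, Kif3b, Kif3c, Dync2h1 and Dync2li1, and Arl3, Mks1, Nphp4, Rpgr, Rpgrip1l, Tulp3 and Cep290. This gave 42 of the 19505 genes named on the array, each with 1 probe set. The choice used symbols alone, but it was made with earlier results of these data known. Kif17, Arl6 and Arl13b, which the same rule would take, were not analysed here.

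An olfactory sensory neuron ends in a dendritic knob from which long cilia spread into the mucus, and these cilia hold the odorant receptors and the transduction channel. Cilia make no protein of their own. Intraflagellar transport (IFT) trains carry cargo along the ciliary microtubules, kinesin-2 pulling toward the tip and dynein-2 pulling back, while the BBSome, a coat complex named for Bardet-Biedl syndrome, moves membrane proteins. At the ciliary base the transition zone controls entry, and inherited defects in the BBSome and in the transition zone protein Cep290 are known to impair the sense of smell.

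RNA came from S100a5-tauGFP mice on C57BL/6, a reporter line in which GFP marks cells through S100a5, a calcium-binding protein gene of olfactory sensory neurons. The 24 mice were of both sexes, 7 to 12 weeks old, and each was housed alone under a clean air flow of 3.1 L/min for 40 h. From 26 h onward vehicle mice received filtered air and odor mice received isoamyl acetate, an ester with a banana smell, in pulses of 10 s at intervals of 20 min. Olfactory mucosa was dissociated and sorted by GFP in pools of 3 mice, and both sorts of the 8 pools were hybridised to Clariom S arrays from 50 to 100 ng of total RNA. There were thus 4 groups of 4 libraries (either treatment with either GFP sign in the title), with pools of different mice as replicates. Every mouse carried the reporter, and how the sexes were spread over pools was not stated in the labels.

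The cell type field of all 16 samples gives the GFP sign opposite to the title, and S100a5 itself went with that field. In vehicle mice S100a5 averaged 16.39 ± 0.20 (SD, n = 4) where the title says GFP- and 15.21 ± 0.47 where it says GFP+. The S100a5 difference was -1.18 (SE 0.21, limma adjusted p = 0.000442), and in odor mice it was -1.25 (SE 0.21, adjusted p = 0.000222). Libraries are therefore called by their titles throughout, and every sort difference below (titled GFP+ minus titled GFP-) changes sign if the cell type field is right. Values are log2 signals, in which 1 unit is a doubling, and a level on one probe set cannot be set against that on another. Markers of mature olfactory neurons were above the median negative control in all 16 libraries for 17 of 19 genes measured. The mean of 18 neutrophil and macrophage markers ran from 5.51 to 6.67 in libraries titled GFP- and from 11.35 to 12.86 in the other sort, so both neuronal and myeloid markers were read in the latter. In such bulk samples fewer neurons and less RNA per neuron cannot be told apart.

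Of the 42 genes, 41 read above the median negative control of the array in every one of the 16 libraries. Bbs12 did so in 0 of 16. Averaged over the 42 genes, the libraries titled GFP- ran from 11.96 to 12.10 in vehicle mice and from 11.90 to 12.12 in odor mice. Those titled GFP+ ran from 11.75 to 11.81 and from 11.51 to 11.80. The sorts thus did not overlap in this mean under either treatment, and the odor libraries titled GFP+ were the most spread.

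The regulatory sequence in front of several of these genes is shown because cilium genes are commonly bound by RFX transcription factors, the regulators of ciliogenesis, at a palindromic motif called the X-box. The letters searched were GTNNCCNNGGNNAC, on both strands, in the window from 250 bases before to 50 bases after the start site. Promoters in the RefSeq table of build GRCm38.p6 were found for 37 of the 42 genes, and 12 of the 37 held the motif. By promoter, the share was 27.9% against 10.1% for a list of other cilium genes and 1.88% for all 32817 promoters of that length. The shorter form GTTGCC, which can lie inside the longer motif, was in 41.9% of the promoters of these genes, 29% of those of the other cilium genes and 12.5% of all promoters. Both forms were chosen with matches in view, and a match is a string of letters, not a measured binding site.

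For 5 genes the 120 bases ending just before the start are printed 5′ to 3′ on the gene's strand, with each match of the longer motif in capitals and all else in lower case. They are Tmem237, whose sort difference was the largest of the 42 genes in odor mice, and 4 others with a match, Ift57 and Ift22 of the IFT-B train and Mks1 and Tctn2 of the transition zone. The windows are chr1:59120097-59120216 on the minus strand and, on the plus strand, chr5:124598629-124598748, chr11:87853095-87853214, chr16:49699174-49699293 and chr5:136908030-136908149.
Tmem237: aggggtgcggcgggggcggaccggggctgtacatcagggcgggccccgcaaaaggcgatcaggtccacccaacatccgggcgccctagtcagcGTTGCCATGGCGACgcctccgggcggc
Tctn2: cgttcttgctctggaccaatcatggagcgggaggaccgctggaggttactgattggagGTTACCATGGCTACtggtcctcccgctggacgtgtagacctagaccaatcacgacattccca
Mks1: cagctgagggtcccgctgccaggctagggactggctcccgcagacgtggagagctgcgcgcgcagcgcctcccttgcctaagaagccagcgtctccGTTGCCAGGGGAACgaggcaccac
Ift57: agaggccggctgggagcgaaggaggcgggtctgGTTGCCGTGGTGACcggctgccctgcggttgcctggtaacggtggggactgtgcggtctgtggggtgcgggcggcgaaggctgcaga
Ift22: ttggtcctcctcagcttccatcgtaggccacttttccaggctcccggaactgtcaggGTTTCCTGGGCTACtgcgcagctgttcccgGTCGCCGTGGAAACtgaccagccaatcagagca
In Tmem237 the match spans bases 27 to 14 before the start. The Ift22 stretch holds the motif at 2 places. The sort differences described below had a median of -0.25 over the 12 genes with the motif and -0.29 over the 25 without in vehicle mice. In odor mice these medians were -0.37 and -0.32, given as a description.

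Comparing the sorts within vehicle mice asks how cilium transport RNA differs between the GFP fractions with no odor given. Every gene read lower on average in libraries titled GFP+, 42 of 42, where 67.7% of all tested probe sets did. The median difference was -0.26, which is 1.20-fold or 16.5% lower, and differences ran from -0.67 to -0.01. Over all 22206 tested probe sets the median was -0.13. The fit without a block leaves differences between pools in the error, and few single genes were called in it. Called was 1 of 42 (limma, Benjamini-Hochberg adjusted p under 0.05), Bbs12, and it was lower. Of all probe sets, 17.3% were called in either direction and 7.16% were called lower. With an unadjusted p under 0.05 there were 8 genes, where 30.1% of all probe sets had one. The 2 sorts come from the same animals. With the pool as a fixed block 4 genes were called, all lower (10.2% of all probe sets were called lower): Bbs12, Ift74, Ift81 and Rpgrip1l. With the pool as a random block 4 were called lower too (11.7% of all probe sets), Tctn3 in place of Rpgrip1l.

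The same comparison in odor mice gave a median of -0.33, or 1.26-fold and 20.7% lower, against -0.14 over all probe sets. Here 40 of 42 genes read lower in libraries titled GFP+ (67.7% of all probe sets), with Ift140 and Tctn1 at 0.00 and 0.05. Called lower were 6 genes, where 20.9% of all probe sets were called in either direction and 9.86% were called lower: Tmem237, Tmem107, Tmem231, Dync2li1, Ift43 and Ift46. The first 3 of these belong to the transition zone. No gene of the 42 was called higher in either treatment. With the pool as a fixed block 17 genes were called, all lower and with the 6 among them, where 14.2% of all probe sets were called lower. A random block also called 17 lower (15.3% of all probe sets), but Bbs4, Nphp4 and Tctn3 stood in place of Dync2h1, Ift22 and Rpgrip1l. Fitted on the odor libraries alone, 2 were called, Tmem237 and Dync2li1, where 5.77% of all probe sets were called lower.

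The number of genes called and the size of the differences depend on the scale of the deposited values. The genes' median was below 0 under each scaling tried, but came close to 0 when centred on mature neuron markers. Centring each array on its median moved the median of all probe sets to -0.50 in both treatments and the count called lower to 40 of 42, where 62.5% of all probe sets in vehicle and 61.6% in odor mice were called lower. By contrast, centring each array on the mean of the mature neuron markers left 0 called in vehicle mice and 0 in odor mice. Below 0 were 28 of 42 in vehicle mice and 30 of 42 in odor mice. Of all probe sets, 2.68% and 2.87% were called lower. The genes' median was then -0.05 in vehicle and -0.06 in odor mice. On the deposited scale the genes' median difference had an SD over pools of 0.06 and 0.07. The genes' median lay -0.13 from that of all probe sets in vehicle mice and -0.20 in odor mice, a distance that centring cannot change because it moves all probe sets of an array alike. The mature neuron markers themselves had a median difference of -0.17 in vehicle mice and -0.24 in odor mice. On the deposited scale 3 of 19 were called lower and 0 higher in each (7.16% and 9.86% of all probe sets were called lower). How far the content of mature neurons accounts for the lower cilium RNA was not tested beyond this centring.

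**Figure D1:**
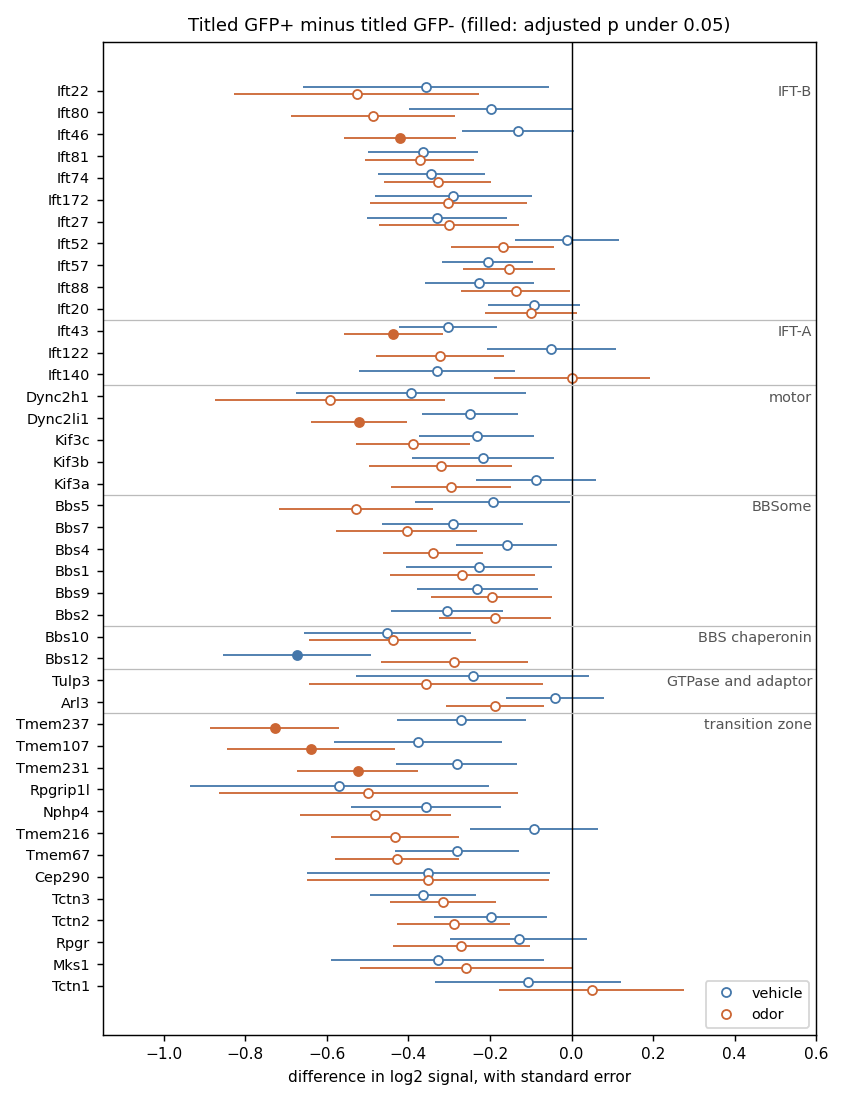
Sort differences (titled GFP+ minus titled GFP-, log2) of the 42 genes, grouped by role, in vehicle mice and in odor mice. Points are limma estimates and bars 1 standard error; filled points were called at an adjusted p under 0.05 (1 gene in vehicle, 6 in odor), and on the deposited scale all points lie left of 0 in vehicle and 40 of 42 in odor mice.

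Within pools the difference was regular. The mean over the 42 genes was lower in the library titled GFP+ in all 8 pools, with differences of -0.29, -0.31, -0.23 and -0.21 in vehicle pools 1 to 4 and of -0.44, -0.33, -0.22 and -0.38 in odor pools 1 to 4. Lower in every one of the 8 pools were 21 of 42 genes (15.1% of all probe sets). Counted by groups that did not overlap, 4 genes were lower in vehicle mice (Ift57, Tctn2, Tctn3 and Tmem231), where 12% of all probe sets were, and 12 genes in odor mice, where 11.3% were. Odor pool 1, with the largest cilium difference, also had the largest difference in mature neuron markers, -0.47, and odor pool 3 had the smallest of the odor pools in both, with -0.09 in the neuron markers. In odor pools 2 and 4 the neuron markers differed by -0.29 and -0.26, and in vehicle pools by -0.21, -0.19, -0.25 and -0.20. The vehicle pools did not share this order. Vehicle pool 2 had the largest cilium difference of that treatment, -0.31, and the smallest in the neuron markers, -0.19. The neutrophil and macrophage markers differed by 5.96, 6.58, 5.55 and 5.32 in vehicle pools 1 to 4 and by 6.43, 6.75, 5.13 and 5.36 in odor pools 1 to 4. The part of cell content in this was not tested.

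**Figure D2:**
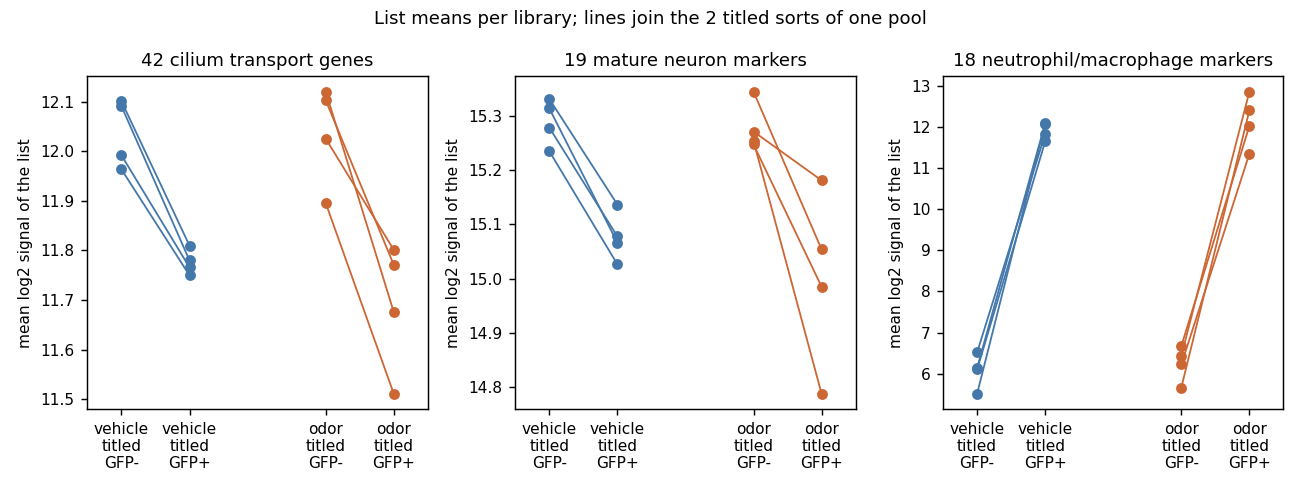
Mean log2 signal per library over the 42 cilium transport genes, 19 mature neuron markers and 18 neutrophil and macrophage markers, with lines joining the sorts of 1 pool and a separate vertical scale in each panel. On the deposited scale the line of all 8 pools falls for the cilium genes and the neuron markers and climbs for the neutrophil and macrophage markers.

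The IFT-B complex forms the body of the train that moves toward the tip. Its 11 genes had a median sort difference of -0.23 in vehicle and -0.30 in odor mice. In vehicle mice 0 were called (7.16% of all probe sets were called lower), and in odor mice 1 (9.86%). An unadjusted p under 0.05 in vehicle mice was found for 2 of the 11 and for 30.1% of all probe sets. Ift46, which in green algae is needed to import outer dynein arms, was the called gene. Values below are listed in the order of pools 1 to 4. In odor mice Ift46 read 12.54, 12.64, 12.76 and 12.71 in libraries titled GFP- and 11.87, 12.22, 12.36 and 12.54 in those titled GFP+. The groups came as close as rounding shows at 12.54 but did not overlap, and the difference was -0.42 (SE 0.14, adjusted p = 0.0383). In vehicle mice Ift46 read 12.65, 12.44, 12.74 and 12.61 against 12.38, 12.64, 12.43 and 12.46, overlapping groups with a difference of -0.13 (SE 0.14, adjusted p = 0.553). The Ift46 call was lost when any 1 of the odor libraries titled GFP+ 1, GFP+ 2, GFP- 2, GFP- 3 or GFP- 4 was left out, at adjusted p values from 0.0623 to 0.133.

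Ift81 and Ift74, partners that bind tubulin as cargo, were lower in each of the 8 pools and are shown for their calls under the block. In vehicle mice Ift81 read 13.85, 13.57, 13.48 and 13.39 in libraries titled GFP- and 13.52, 13.26, 13.07 and 12.97 in those titled GFP+. In odor mice Ift81 read 13.73, 13.61, 13.59 and 13.60 against 13.36, 13.31, 13.20 and 13.17, where the groups did not overlap. The differences were -0.37 (SE 0.13, adjusted p = 0.0749) and -0.37 (SE 0.13, adjusted p = 0.0601), and with the pool as a fixed block they were -0.37 (SE 0.09, adjusted p = 0.0199) and -0.37 (SE 0.09, adjusted p = 0.0155). Ift74 differed by -0.34 (SE 0.10, adjusted p = 0.0425) in vehicle and -0.33 (SE 0.10, adjusted p = 0.0435) in odor mice in the same blocked fit.

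At the other end of the IFT-B genes stood Ift52, a core subunit that holds the complex together, and Ift20, which also sits at the Golgi and brings membrane proteins from there. In vehicle mice Ift52 read 12.03, 11.80, 11.59 and 11.91 against 11.99, 12.00, 11.56 and 11.73, a difference of -0.01 (SE 0.13, adjusted p = 0.966). In odor mice Ift52 read 11.80, 11.80, 11.88 and 11.85 against 11.68, 11.58, 11.77 and 11.63, groups that did not overlap but differed by only -0.17 (SE 0.13, adjusted p = 0.374). For Ift20 the vehicle values were 14.32, 14.22, 14.31 and 14.39 against 14.25, 14.05, 14.18 and 14.40. Its odor values were 14.26, 14.26, 14.31 and 14.24 against 14.03, 14.05, 14.35 and 14.24. The sorts of Ift20 overlapped in both treatments, with differences of -0.09 (SE 0.11, adjusted p = 0.622) and -0.10 (SE 0.11, adjusted p = 0.564).

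The remaining 6 IFT-B genes were not called. Ift88, without which cilia fail to form, differed by -0.23 in vehicle and -0.14 in odor mice. Ift172, which takes part in turning the trains at the tip, differed by -0.29 and -0.30, and the small GTPase Ift27, which links the train to the BBSome, by -0.33 and -0.30. Ift57, Ift80 and the Rab-like Ift22 gave -0.21, -0.20 and -0.36 in vehicle mice and -0.15, -0.49 and -0.53 in odor mice. Of these, Ift80 and Ift22 were called in odor mice once the pool was a fixed block, at -0.49 (SE 0.11, adjusted p = 0.00839) and -0.53 (SE 0.16, adjusted p = 0.0386), but with a random block Ift22 was not (adjusted p = 0.124).

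IFT-A carries the return journey and the entry of membrane receptors, and 3 of its genes met the symbol rule: Ift43, Ift122 and Ift140. Their median difference was -0.30 in vehicle and -0.32 in odor mice, with 0 and 1 called. Of all probe sets, 7.16% and 9.86% were called lower. In odor mice Ift43 read 12.70, 12.46, 12.55 and 12.47 in libraries titled GFP- and 12.09, 12.20, 12.22 and 11.92 in those titled GFP+. No library titled GFP+ reached the lowest titled GFP-, and the difference was -0.44 (SE 0.12, adjusted p = 0.0155). In vehicle mice Ift43 read 12.66, 12.63, 12.58 and 12.42 against 12.42, 12.22, 12.05 and 12.37, lower in all 4 pools though the ranges met at 12.42, with a difference of -0.30 (SE 0.12, adjusted p = 0.0989). The odor call of Ift43 was lost without odor titled GFP- 1 (adjusted p = 0.0536) or odor titled GFP+ 4 (adjusted p = 0.0531).

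Neither Ift140, a scaffold of IFT-A, nor Ift122 was called in any comparison. In vehicle mice Ift140 read 12.13, 11.84, 11.47 and 11.36 against 11.67, 11.45, 11.35 and 11.00, lower in all 4 pools, a difference of -0.33 (SE 0.19, adjusted p = 0.262). In odor mice Ift140 read 11.88, 11.50, 11.18 and 11.46 against 11.58, 11.70, 11.37 and 11.37, 2 pools lower and 2 higher, a difference of 0.00 (SE 0.19, adjusted p = 0.999). For Ift122 the larger difference was the one in odor mice. Its vehicle values were 11.98, 12.19, 11.96 and 11.79 against 12.05, 11.88, 11.94 and 11.84 (-0.05) and its odor values 12.26, 12.27, 11.86 and 11.66 against 11.36, 11.85, 11.88 and 11.66 (-0.32). The widest gap was in odor pool 1, at 12.26 and 11.36.

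Among the 5 motor genes the dynein-2 pair differed most. Dync2li1, the light intermediate chain of the return motor, had a difference of -0.52 (SE 0.12, adjusted p = 0.00369) in odor mice, and this call was kept when each library in turn was left out. In odor mice Dync2li1 read 10.61, 10.41, 10.53 and 10.35 in libraries titled GFP- and 10.05, 9.76, 9.90 and 10.11 in those titled GFP+, with no overlap. In vehicle mice Dync2li1 read 10.43, 10.36, 10.28 and 10.30 against 10.29, 9.99, 10.02 and 10.07, lower in all 4 pools, with only the highest titled GFP+ library inside the range of the others. That difference was -0.25 (SE 0.12, adjusted p = 0.164). Dync2h1, the heavy chain that does the pulling, differed by -0.39 (SE 0.28, adjusted p = 0.37) and -0.59 (SE 0.28, adjusted p = 0.152), on a wide spread between pools described below.

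The kinesin-2 genes were lower in value in libraries titled GFP+ and none was called. Kif3a, the motor subunit shared by both kinesin-2 heterodimers, read 13.54, 13.89, 13.64 and 13.79 against 13.63, 13.67, 13.53 and 13.68 in vehicle mice. In odor mice Kif3a read 13.83, 14.11, 13.72 and 13.45 against 13.38, 13.79, 13.44 and 13.32. Its differences were -0.09 (SE 0.15, adjusted p = 0.727) and -0.30 (SE 0.15, adjusted p = 0.171), and the sorts overlapped in both. Its partner Kif3b read 12.01, 11.96, 11.97 and 12.10 against 11.85, 11.45, 11.84 and 12.03 in vehicle mice and 12.02, 11.63, 12.06 and 12.25 against 11.63, 11.26, 12.09 and 11.70 in odor mice. Kif3b differed by -0.22 (SE 0.17, adjusted p = 0.43) and -0.32 (SE 0.17, adjusted p = 0.211). Kif3c, the alternative partner found mainly in neurons, differed by -0.23 (SE 0.14, adjusted p = 0.284) and -0.39 (SE 0.14, adjusted p = 0.0604), was lower in all 8 pools, and was called in odor mice with the pool as a fixed block, at -0.39 (SE 0.13, adjusted p = 0.0498). The 5 motor genes had a median of -0.23 in vehicle mice, with 0 called, and -0.39 in odor mice, with 1 called. Of all probe sets, 7.16% and 9.86% were called lower.

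The 6 BBSome genes had a median of -0.23 in vehicle and -0.30 in odor mice. Of these genes 0 was called in either, where 7.16% and 9.86% of all probe sets were called lower. At an unadjusted p under 0.05 there were 1 in vehicle and 3 in odor mice, where 30.1% and 33.3% of all probe sets had one. Bbs4 stood at an adjusted p of 0.0608 in odor mice. In odor mice Bbs4 read 14.49, 14.53, 14.53 and 14.54 in libraries titled GFP- and 13.85, 14.18, 14.32 and 14.39 in those titled GFP+. The GFP- values were nearly level, all GFP+ values lay below them, and the difference was -0.34 (SE 0.12, adjusted p = 0.0608). Bbs4 was not called with a fixed block, at -0.34 (SE 0.12, adjusted p = 0.0544), and was called with a random one (adjusted p = 0.0273). In vehicle mice Bbs4 read 14.51, 14.64, 14.69 and 14.69 against 14.52, 14.31, 14.52 and 14.54, overlapping groups with -0.16 (SE 0.12, adjusted p = 0.41).

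Bbs2 and Bbs9 were the BBSome genes nearest to no difference in the mean of both treatments. In vehicle mice Bbs2 read 13.61, 13.44, 13.50 and 13.33 against 13.02, 13.40, 13.21 and 13.02 and in odor mice 13.36, 13.48, 13.28 and 13.11 against 13.09, 13.11, 13.40 and 12.88. Pool 3 of the odor mice was higher in the library titled GFP+, and the other 7 pools were lower. Bbs2 differed by -0.31 (SE 0.14, adjusted p = 0.144) and -0.19 (SE 0.14, adjusted p = 0.358). In vehicle mice Bbs9 read 14.94, 14.76, 14.81 and 14.45 against 14.73, 14.43, 14.51 and 14.36 and in odor mice 14.94, 14.53, 14.56 and 14.84 against 14.83, 14.50, 14.35 and 14.41. All 8 pools were lower for Bbs9, with differences of -0.23 (SE 0.15, adjusted p = 0.317) and -0.20 (SE 0.15, adjusted p = 0.378).

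Bbs1, Bbs5 and Bbs7 were the other BBSome genes of the 42. Bbs1, the subunit that binds the Arl6 GTPase, differed by -0.23 (SE 0.18, adjusted p = 0.419) in vehicle and -0.27 (SE 0.18, adjusted p = 0.311) in odor mice. Bbs5 differed by -0.19 (SE 0.19, adjusted p = 0.527) and -0.53 (SE 0.19, adjusted p = 0.0585), the latter resting in part on 1 library at 9.16 beside 9.96 to 10.08 for the other 3. Bbs7 differed by -0.29 (SE 0.17, adjusted p = 0.276) and -0.40 (SE 0.17, adjusted p = 0.111). With the pool as a fixed block, Bbs5 and Bbs7 were called in odor mice, at -0.53 (SE 0.15, adjusted p = 0.0257) and -0.40 (SE 0.11, adjusted p = 0.0226).

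Bbs10 and Bbs12 encode chaperonin-like proteins that help to assemble the BBSome. In vehicle mice Bbs12 read 4.32, 4.67, 4.22 and 4.60 in libraries titled GFP- and 3.52, 3.74, 3.61 and 4.25 in those titled GFP+, and in odor mice 4.36, 4.35, 4.26 and 3.85 against 3.86, 4.27, 3.83 and 3.71. Every one of these values lay below the median negative control of its array, so the call of -0.67 (SE 0.18, adjusted p = 0.0146) is a difference between signals not above background, and no fold is given. It was lost without vehicle titled GFP+ 1 (adjusted p = 0.0548) or vehicle titled GFP- 2 (adjusted p = 0.051). The Bbs12 difference in odor mice was -0.29 (SE 0.18, adjusted p = 0.283). With the test limited to probe sets above the median negative control on at least 4 arrays, Bbs12 left it and Tctn3 was the 1 gene called in vehicle mice, where 9.53% of the probe sets left were called lower.

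Bbs10 was dim but above background. In vehicle mice Bbs10 read 6.51, 6.60, 6.51 and 6.36 against 6.00, 5.90, 5.72 and 6.56, with pool 4 the only one to run the other way. In odor mice Bbs10 read 6.42, 6.59, 6.65 and 5.92 against 6.30, 6.04, 6.02 and 5.47, lower in all 4 pools. The sorts overlapped in both, with differences of -0.45 (SE 0.20, adjusted p = 0.148) and -0.44 (SE 0.20, adjusted p = 0.145).

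Arl3, a GTPase that releases lipid-anchored cargo inside the cilium, read 16.33, 16.14, 16.25 and 15.98 against 16.19, 16.16, 16.12 and 16.07 in vehicle mice. In odor mice Arl3 read 16.21, 15.91, 16.26 and 16.22 against 15.99, 15.85, 16.14 and 15.88. The groups overlapped in both, and the differences were -0.04 (SE 0.12, adjusted p = 0.851) and -0.19 (SE 0.12, adjusted p = 0.29). Tulp3, the adaptor that ferries receptors in with IFT-A, read 9.30, 9.95, 10.21 and 10.45 against 9.17, 9.75, 9.93 and 10.09 in vehicle mice. In odor mice Tulp3 read 9.85, 9.98, 10.35 and 9.23 against 9.04, 9.49, 10.08 and 9.37. In vehicle mice the pools ranged more widely than the sorts of any 1 pool differed, and the differences were -0.24 (SE 0.29, adjusted p = 0.602) and -0.36 (SE 0.29, adjusted p = 0.407).

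The transition zone, with 13 genes, held the largest differences in odor mice. Its median was -0.28 in vehicle mice, with 0 called (7.16% of all probe sets were called lower). There 1 of the 13 had an unadjusted p under 0.05, as 30.1% of all probe sets did. In odor mice its median was -0.43, with 3 called (9.86% of all probe sets were called lower). These were Tmem237, Tmem107 and Tmem231, all membrane proteins of its gate. In odor mice Tmem237 read 9.66, 10.01, 9.55 and 9.61 in libraries titled GFP- and 8.97, 9.22, 9.10 and 8.62 in those titled GFP+. The groups lay clear of each other, with a difference of -0.73 (SE 0.16, adjusted p = 0.00276), and the call was kept when each library in turn was left out. In vehicle mice Tmem237 read 9.56, 9.42, 9.07 and 9.31 against 9.31, 9.01, 9.08 and 8.87, overlapping groups with 3 of 4 pools lower and a difference of -0.27 (SE 0.16, adjusted p = 0.268).

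Tmem231 was lower without overlap in both treatments. In vehicle mice Tmem231 read 13.15, 13.13, 13.23 and 13.28 in libraries titled GFP- and 12.89, 12.98, 12.94 and 12.86 in those titled GFP+. In odor mice Tmem231 read 13.07, 13.10, 13.32 and 12.98 against 12.15, 12.76, 12.97 and 12.49. Odor pool 1 was the lowest, at 12.15, and odor pool 3, at 12.97, lay just under the lowest titled GFP- library, at 12.98. The differences were -0.28 (SE 0.15, adjusted p = 0.217) and -0.52 (SE 0.15, adjusted p = 0.0179), and the odor call was lost without odor titled GFP+ 1 (adjusted p = 0.0631) or odor titled GFP- 3 (adjusted p = 0.0601).

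Tmem107 was lower in all 8 pools, but its groups overlapped in both treatments. In vehicle mice Tmem107 read 11.36, 11.25, 10.96 and 11.07 against 11.07, 10.61, 10.84 and 10.62 and in odor mice 11.66, 11.44, 11.18 and 11.42 against 11.21, 11.09, 10.77 and 10.08. Odor titled GFP+ 4 was the lowest by far, and without it the odor difference of -0.64 (SE 0.21, adjusted p = 0.0362) became -0.40 (adjusted p = 0.107). Without odor titled GFP- 1, GFP- 2 or GFP- 4, or odor titled GFP+ 3, the call was lost too, at adjusted p values from 0.061 to 0.101.

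Tctn1 and Rpgr were the transition zone genes nearest to no difference. Tctn1, a secreted Tectonic needed for Hedgehog signalling, read 12.17, 11.44, 12.33 and 12.08 against 11.80, 11.77, 12.22 and 11.78 in vehicle mice. In odor mice Tctn1 read 11.95, 11.30, 12.02 and 12.01 against 12.09, 11.28, 12.13 and 11.98. Replicate 2 was the lowest in each of the 4 groups, and the differences were -0.11 (SE 0.23, adjusted p = 0.787) and 0.05 (SE 0.23, adjusted p = 0.9). Rpgr, mutated in X-linked retinitis pigmentosa, read 12.90, 13.08, 13.08 and 13.34 against 12.65, 12.86, 12.98 and 13.39 in vehicle mice. In odor mice Rpgr read 13.06, 13.28, 13.14 and 12.92 against 12.79, 12.85, 13.17 and 12.52. The sorts of Rpgr overlapped in both, with -0.13 (SE 0.17, adjusted p = 0.642) and -0.27 (SE 0.17, adjusted p = 0.276).

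The other 8 transition zone genes were not called without a block. Tctn3 did not overlap between sorts in either treatment and differed by -0.36 (SE 0.13, adjusted p = 0.0664) and -0.32 (SE 0.13, adjusted p = 0.0985). With a fixed block it was not called, at -0.36 (SE 0.12, adjusted p = 0.0593) and -0.32 (SE 0.12, adjusted p = 0.0819), and with a random block it was (adjusted p = 0.0299 and adjusted p = 0.0497). Tctn2 gave -0.20 and -0.29, Tmem67 (meckelin) gave -0.28 and -0.43, and Tmem216 gave -0.09 and -0.43. With the pool as a fixed block both Tmem genes were called in odor mice, Tmem67 at -0.43 (SE 0.11, adjusted p = 0.017) and Tmem216 at -0.43 (SE 0.14, adjusted p = 0.0455). Nphp4 differed by -0.36 and -0.48, and the B9-domain gene Mks1 by -0.33 and -0.26. In odor mice Nphp4 was called with a random block (adjusted p = 0.0397) but not with a fixed one (adjusted p = 0.0693). Cep290 and Rpgrip1l, scaffolds between the microtubules and the ciliary membrane, are described next.

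For some of these genes the pools differed more than the sorts did, and both sorts of a pool varied together. Rpgrip1l, chosen for this after its values were seen, is the plainest case. In vehicle mice Rpgrip1l read 12.72, 12.71, 12.46 and 11.61 in libraries titled GFP- and 12.00, 12.31, 11.89 and 11.03 in those titled GFP+. In odor mice Rpgrip1l read 12.32, 12.78, 12.13 and 11.22 against 12.02, 12.14, 11.52 and 10.78. Pool 4 of each treatment was the lowest in both sorts, and every pool was lower in its library titled GFP+. Without a block the differences were -0.57 (SE 0.37, adjusted p = 0.317) and -0.50 (SE 0.37, adjusted p = 0.362); with the pool as a fixed block they were -0.57 (SE 0.11, adjusted p = 0.00382) and -0.50 (SE 0.11, adjusted p = 0.00736). With a random block Rpgrip1l was called in neither treatment (adjusted p = 0.172 and adjusted p = 0.216).

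**Figure D3:**
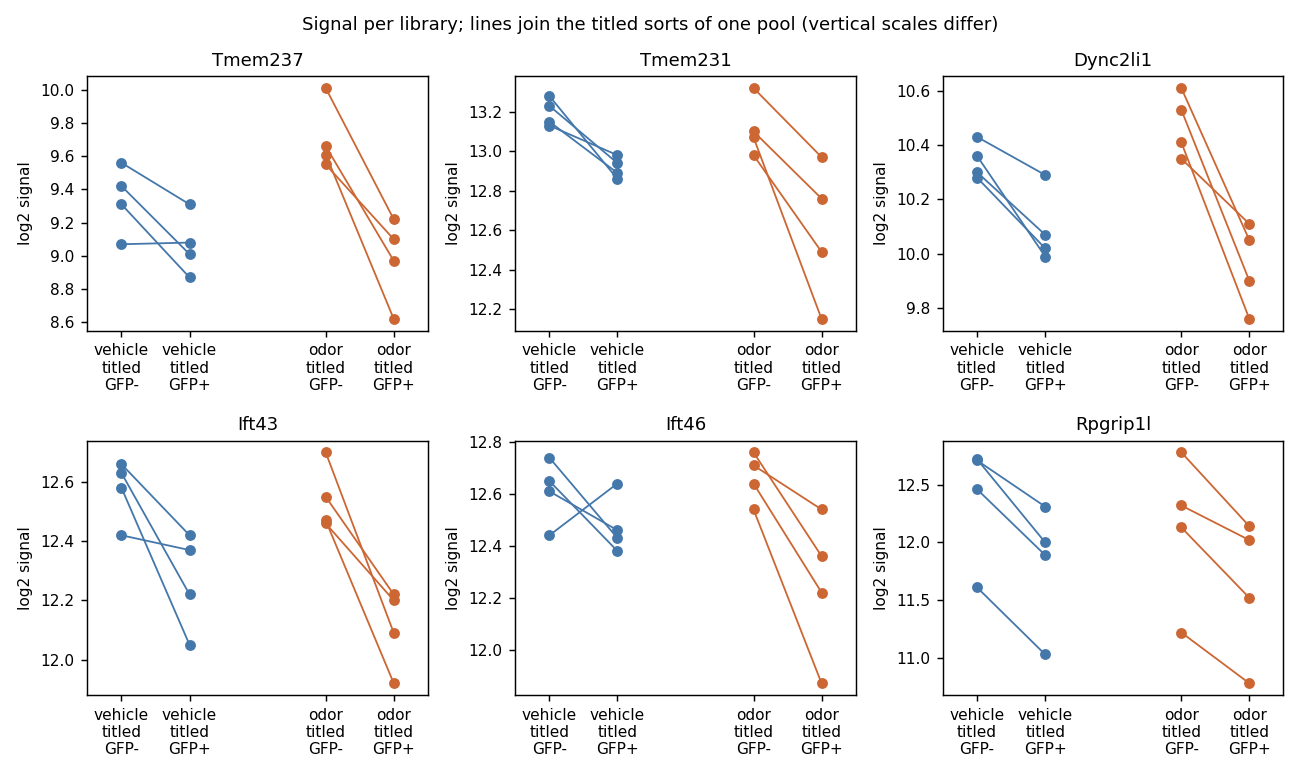
Log2 signal of 6 genes in each of the 16 libraries, by group; lines join the titled GFP- and titled GFP+ library of 1 pool. In odor mice the titled GFP+ points of Tmem237, Tmem231, Dync2li1, Ift43 and Ift46 all lie below the titled GFP- points, while the lines of Rpgrip1l, which has the widest spread between pools, run down side by side.

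Cep290 and Dync2h1, chosen in the same way, varied likewise. In vehicle mice Cep290 read 12.20, 12.41, 11.54 and 11.22 against 11.63, 11.80, 11.40 and 11.14 and in odor mice 12.30, 12.57, 11.69 and 11.56 against 12.07, 12.13, 11.43 and 11.08. Pools 1 and 2 of each treatment read higher than pools 3 and 4 in both sorts. Dync2h1 read 11.65, 11.89, 11.18 and 10.61 against 10.97, 11.18, 11.09 and 10.51 in vehicle mice and 11.56, 11.53, 10.68 and 10.94 against 10.98, 10.90, 10.39 and 10.07 in odor mice. Dync2h1 was called in odor mice with the pool as a fixed block, at -0.59 (SE 0.15, adjusted p = 0.0152), but not with a random one (adjusted p = 0.0664), and Cep290 was not called with either, at -0.35 (SE 0.12, adjusted p = 0.0618) with the fixed block. Over the 42 genes, the spread of the within-pool differences was smaller than 2 unrelated libraries would give for 33 genes in vehicle mice, or 78.6% (62.3% of all probe sets), and for 40 genes in odor mice, or 95.2% (66.4% of all probe sets).

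Whether odor altered the sort difference was asked with the interaction, the odor sort difference minus the vehicle one. Of the 42 genes limma called 0, and 0 had an unadjusted p under 0.05, where 1 probe set in all (0.0045%) was called and 2.94% had such a p. The median was -0.11 against -0.02 over all probe sets, with 29 of 42 below 0. Tmem237 had the smallest unadjusted p, with -0.46 (SE 0.22, adjusted p = 1.00, 95% interval -0.93 to 0.01), followed by Dync2li1 at -0.27 (SE 0.17, adjusted p = 1.00, 95% interval -0.62 to 0.08). The 6 calls in odor mice and the 1 in vehicle mice are therefore not shown to differ between treatments. The interaction counts and intervals above come from the fit without a block, which does not use the pairing of sorts within a pool. With the pool as a fixed block 0 of the 42 genes were called too. Over all 22206 probe sets that block gave 1092 with an unadjusted p under 0.05, against 653 without it. Intervals of single genes under the block are not given here. In role order the interaction medians were -0.01 for IFT-B, -0.13 for IFT-A, -0.20 for the motors, -0.08 for the BBSome and -0.12 for the transition zone.

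Direct comparison of odor with vehicle mice, on pools of different animals, called 0 genes in either sort. In libraries titled GFP+ the median was -0.09 (all probe sets -0.01), 2 genes had an unadjusted p under 0.05 (4.83% of all probe sets did), and limma called 2 probe sets in all (0.00901%). The 2 genes were Bbs4, at -0.29 (SE 0.12, adjusted p = 0.968, 95% interval -0.55 to -0.03), and Tmem231, at -0.33 (SE 0.15, adjusted p = 0.968, 95% interval -0.64 to -0.01). The 95% intervals of the 42 genes in this comparison lay between -0.97 and 0.81. The Bbs4 values given above show odor pools 3 and 4 within the vehicle range and pools 1 and 2 below it, at 13.85 and 14.18, and the Tmem231 values show odor pool 1 as the lowest too.

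In libraries titled GFP- the median odor difference was -0.01 (all probe sets -0.00), 1 gene had an unadjusted p under 0.05 (3.3% of all probe sets did), and limma called 4 probe sets in all (0.018%). That gene was Tmem237, at 0.37 (SE 0.16, adjusted p = 1.00, 95% interval 0.04 to 0.70); its means were 9.34 ± 0.21 in vehicle and 9.71 ± 0.21 in odor mice (SD, n = 4). Bbs12 came next, at -0.25 (SE 0.18, adjusted p = 1.00, 95% interval -0.63 to 0.14). The 95% intervals lay between -1.04 and 0.81. The interaction and both odor comparisons share their libraries with the sort comparisons, so a gene such as Tmem237, high in odor libraries titled GFP-, enters more than one of them.

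**Figure D4:**
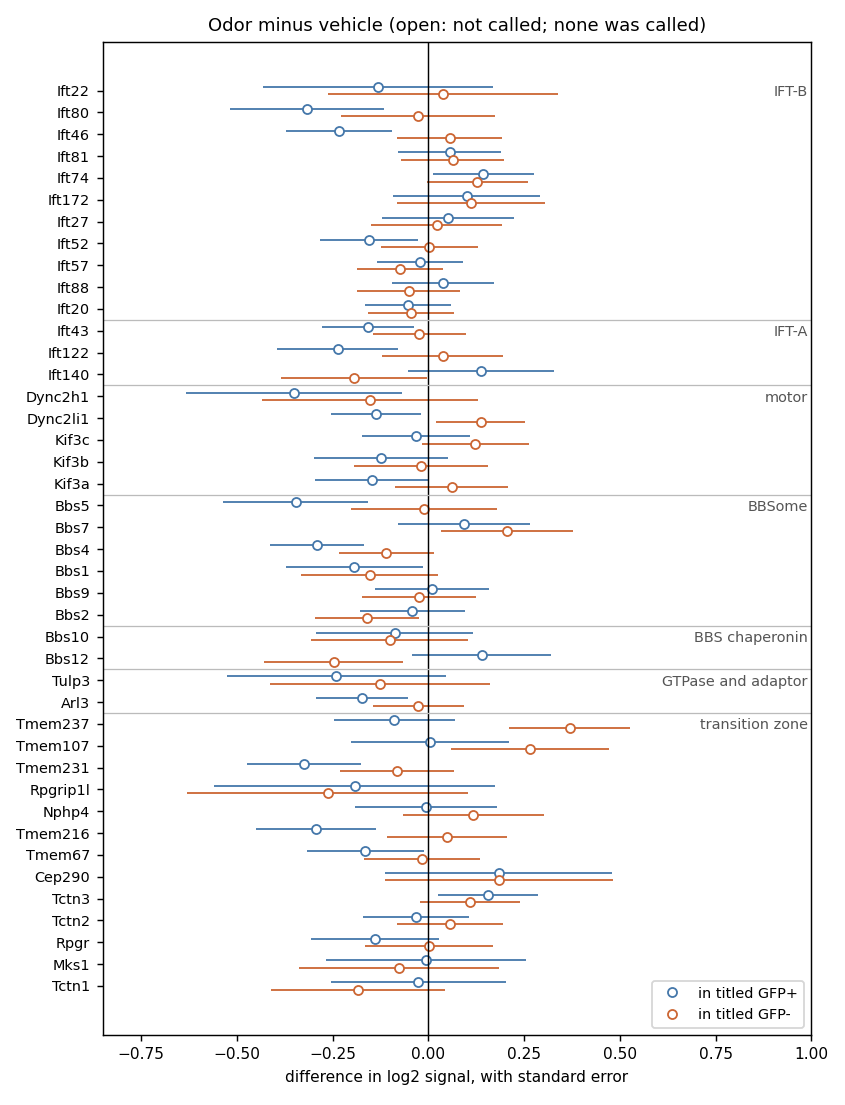
Odor minus vehicle difference (log2) of the 42 genes in libraries titled GFP- and titled GFP+, grouped by role. Points are limma estimates with bars of 1 standard error; all points are open because 0 genes were called.

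Other cilium genes, from a list outside the 42, were set beside them. Of 63 measured, 2 were called lower and 0 higher in vehicle mice (7.16% of all probe sets were called lower), and 13 lower and 0 higher in odor mice (9.86%), with medians of -0.27 and -0.34. The 2 of vehicle mice were Hspb11, the IFT-B subunit also called Ift25, at -0.57 (SE 0.13, adjusted p = 0.00494), and Ttc8, the BBSome subunit also called Bbs8, at -0.44 (SE 0.13, adjusted p = 0.0287). The Ttc8 call in vehicle mice was lost without vehicle titled GFP- 1 or GFP- 4, or vehicle titled GFP+ 2, GFP+ 3 or GFP+ 4, at adjusted p values from 0.0561 to 0.0864. In odor mice these were -0.64 (SE 0.13, adjusted p = 0.00174) and -0.54 (SE 0.13, adjusted p = 0.00665). Wdpcp, a planar polarity effector at the ciliary base, differed by -0.73 (SE 0.16, adjusted p = 0.00374) in odor mice, B9d2 of the transition zone by -0.60 (SE 0.17, adjusted p = 0.0215) and Ttc30b of IFT-B by -0.62 (SE 0.17, adjusted p = 0.015). The B9d2 call was lost without odor titled GFP- 1, GFP+ 1 or GFP+ 2, at adjusted p values from 0.0573 to 0.0763. That of Ttc30b was lost without odor titled GFP+ 1, GFP+ 4 or GFP- 2, at 0.0511 to 0.056, and with the odor libraries alone, at 0.0636. Centred on mature neuron markers, the calls given here for Hspb11, Ttc8, Wdpcp, B9d2 and Ttc30b were all lost. Their limma adjusted p values then ran from 0.105 to 0.351.

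RFX factors were in all libraries above background, with 6 measured. Of these 1 was called lower in each treatment (7.16% and 9.86% of all probe sets in vehicle and odor mice), Rfx4. It averaged 10.43 ± 0.05 (SD, n = 4) in vehicle libraries titled GFP-, and the titled GFP+ libraries differed from it by -1.43 (SE 0.18, adjusted p = 1.29e-05). In odor mice it averaged 10.24 ± 0.33 and 8.78 ± 0.35, with a difference of -1.46 (SE 0.18, adjusted p = 9.41e-06). The median of the 6 factors was -0.32 in vehicle mice and -0.27 in odor mice, so Rfx4 differed by more than the rest of its list and more than any of the 42 cilium transport genes.

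Olfactory mucosa also holds multiciliated respiratory cells, which use the same transport genes. Of 26 markers of motile cilia measured, 20 were above background in all 16 libraries and 2 in none. Their mean ran from 9.04 to 9.18 in vehicle libraries titled GFP- and from 8.74 to 8.81 in those titled GFP+, and from 9.01 to 9.23 and from 8.63 to 8.85 in odor mice. Called lower were 5 in vehicle mice (7.16% of all probe sets were) and 8 in odor mice (9.86%). Their medians were -0.36 and -0.33, and 0 were called higher. Hydin, of the central pair of motile cilia, differed by -0.65 (SE 0.20, adjusted p = 0.0357) and -0.78 (SE 0.20, adjusted p = 0.0105). Its vehicle call was lost without any 1 of vehicle titled GFP- 1, GFP- 2, GFP- 4, GFP+ 1, GFP+ 2 or GFP+ 3, at adjusted p values from 0.0509 to 0.0952, and its odor call with the odor libraries alone, at 0.0569. Centred on mature neuron markers, both calls of Hydin were lost, at limma adjusted p values of 0.168 in vehicle and 0.083 in odor mice. The part of these cells in the cilium transport result was not tested.

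Lists of other cells ran the other way. Of all 22206 tested probe sets, 2260 were called higher in vehicle and 2449 in odor mice. Sustentacular (supporting) cell markers had medians of 2.14 and 2.16 in vehicle and odor mice, with 11 of 13 called higher in each. Microvillar cell markers had 2.82 and 3.17, with 12 of 12 called higher in each, and immature neuron markers 0.43 and 0.33, with 10 and 8 of 18 called higher and 1 and 0 called lower. Progenitor markers had 1.96 and 2.05, with 8 of 8 called higher in each, and lymphocyte markers 1.62 and 1.52, with 8 and 7 of 10. Neutrophil and macrophage markers had 6.93 and 6.93, with 18 and 17 of 18 called higher. Above background in all 16 libraries were 0 of 8 progenitor, 1 of 10 lymphocyte, 3 of 12 microvillar and 7 of 18 neutrophil and macrophage markers. For sustentacular markers it was 8 of 13 and for immature neuron markers 16 of 18. Where a sort was not above background, the size of a difference is limited by it. Lower in value in libraries titled GFP+ were thus the lists of mature neurons and of cilia.

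**Figure D5:**
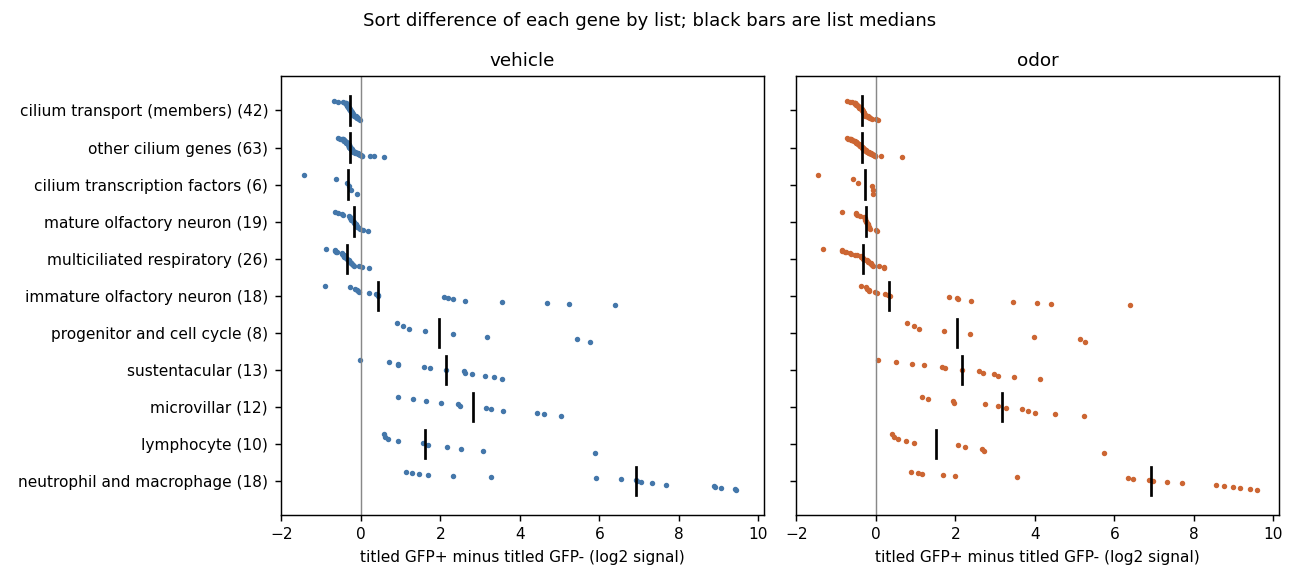
Sort differences (log2) of the genes of each list in vehicle and odor mice, with 1 point per gene. Medians of the cilium transport genes are -0.26 and -0.33, while those of the neutrophil and macrophage markers are 6.93 and 6.93.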

How the data were processed

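The deposited values of the 16 Clariom S arrays are log2 signals per probe set. Per the submitters' processing notes the authors used Affymetrix Expression Console. Background correction, normalization and array build were not stated in the labels. The array medians were not level, so values were used as deposited. Of 28846 probe sets 6640 controls were left out, and 22206 were tested. A gene with several probe sets is represented by the one with the highest mean. A 4-group model was fitted with limma 3.58.1 in R 4.3.3 (lmFit and eBayes; 12 residual degrees of freedom, 4.49 prior) with 5 contrasts, p-values adjusted by Benjamini-Hochberg over all tested probe sets and called under 0.05, without a block because no method is stated in the labels. The procedure was tested on simulated data drawn with no shared pool effect, so that test does not cover the pairing of sorts within a pool. The number of arrays limits the precision. Without a block, p-values rest on the spread between libraries of a group, each from another pool of 3 mice. With the pool as a fixed block, they rest on the spread of the differences within pools.

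Both sorts of a pool come from the same animals, and their deviations from the group means correlated at 0.17 to 0.30 in vehicle and 0.16 to 0.40 in odor mice; fixed-block values stand beside the calls they change. The rule for values in every library was: up to 12 genes called without overlap, up to 2 of each role nearest to no difference, and the 2 with the smallest p in each odor comparison. Ift74, Ift81, Tmem107, Rpgrip1l, Cep290 and Dync2h1 were added after their values were seen. The genes and the lists were chosen with earlier results of these data known. Alternatives were a pool block (fixed or random), quantile normalization, centring on array medians or mature neuron markers, a filter on dim probe sets, a mean-variance trend, only the groups compared, and leaving out each library.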

Additional observations from a re-analysis of the deposited data

Results flagged for a closer look

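In 224 groups of 4 libraries, 13 held a library far from the other 3 by Dixon's gap criterion, where chance flags about 1 in 20 groups. In vehicle libraries titled GFP+, replicate 2 was low for Bbs4 at 14.31 (others from 14.52), for Ift57 at 12.33 (others from 12.54) and for Ccdc113, a motile cilium gene, at 6.014 (others from 6.70). Replicate 4 of that group was low for Ift172, at 11.16, and replicate 3 was high for Tctn1, at 12.22. Odor libraries titled GFP- had replicate 2 low for Arl3 at 15.91 and for Tctn1 at 11.3, and high for Nphp4 at 10.72. Replicate 1 there was high for Ift81 at 13.73 and for Ift88 at 12.27, and replicate 4 was low for Bbs7 at 12.31. In odor libraries titled GFP+, replicate 4 was low for Bbs5 at 9.161 and replicate 2 for Mks1 at 9.973.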

How the results depend on the processing

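With the pool as a fixed block, 4 genes were called lower in vehicle and 17 in odor mice (10.2% and 14.2% of all probe sets). With a random block 4 and 17 were called lower, partly other genes (11.7% and 15.3% of all probe sets). With a mean-variance trend 4 and 11 were called lower (6.98% and 9.93% of all probe sets). Quantile normalization called 2 and 6 lower, where 13.3% and 14.9% of all probe sets were called lower. Centring on array medians called 40 and 40, with medians of -0.6314 and -0.7002, and centring on mature neuron markers called 0 and 0, with medians of -0.04705 and -0.0571. Without dim probe sets 1 and 12 were called lower (9.53% and 14.7% of the probe sets left). With only the groups compared 1 and 2 were called lower (7.43% and 5.77% of all probe sets). No direction reversed among called results. Leaving out 1 library gave 1 to 2 genes called in vehicle mice (2 without vehicle titled GFP- 4 or GFP+ 4), with medians from -0.2752 to -0.2251, and 4 to 9 in odor mice, with medians from -0.4047 to -0.2987. In the interaction and both odor comparisons 0 genes were called under every alternative run, and without single libraries the medians ran from -0.1715 to -0.02993, from -0.1238 to -0.04147 (titled GFP+) and from -0.02875 to 0.04668 (titled GFP-). Same-numbered odor and vehicle pools, tied by number alone in the labels, deviated together at correlations of 0.17 to 0.28 in libraries titled GFP+ and 0.07 to 0.41 in those titled GFP-, and a block on the number called 0 genes too. Every gene had 1 probe set, so the choice of probe set could not be varied, and the interaction uses all groups. Bbs12 was limited by background. The cause of these changes was not tested.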
